A study of Mus musculus with 6 samples.

Results

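miR-23, miR-27 and miR-24 are mature miRNAs made from a pair of gene clusters, and 5 mouse probe sets for them are described here (mmu-miR-23a_st, mmu-miR-23b_st, mmu-miR-27a_st, mmu-miR-27b_st and mmu-miR-24_st, called miR-23a, miR-23b, miR-27a, miR-27b and miR-24 below), out of 609 mouse probe sets and 7625 probe sets in all. They were chosen by name, with star (passenger) strands left out. The same-name probe sets of other mammals are given beside them. Lung miRNAs were measured on 6 arrays, 1 per mouse. The TG group held 2 CC10-rtTA-IL13 transgenic mice, in which a doxycycline-dependent transactivator, expressed from the club cell promoter CC10, switches on interleukin 13, a cytokine of type 2 inflammation. The WT group held 4 wildtype mice. Both groups were C57BL/6 mice aged 6 to 10 weeks that drank water with 2 mg/mL doxycycline for 7 days, and RNA came from the upper lobe of the left lung. The drug was therefore common to both groups. No group had the transactivator without interleukin 13, and these cannot be told apart in TG.

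A cluster of miRNA genes is transcribed as 1 long precursor, from which each hairpin is cut out and trimmed to a mature strand of about the length printed here. The mature strand guides a silencing complex to messenger RNAs that pair with its seed, bases 2 to 8 from the 5′ end. miR-23 and miR-27 are abundant in endothelial cells, where they act on vessel growth, and in mouse T cells miR-24 and miR-27 are known to restrain the production of type 2 cytokines.

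In the mouse RefSeq annotation Mir23a, Mir27a and Mir24-2 lie together on chromosome 8, between the protein-coding genes Nanos3 and Zswim4. Mir23b, Mir27b and Mir24-1 lie together on chromosome 13, inside the gene Aopep. The mature sequences below, from RefSeq (GRCm38.p6), are printed to show how far the members with a matched sequence differ. Capitals mark the seed.
miR-23a-3p: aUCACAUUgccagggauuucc
miR-27a-3p: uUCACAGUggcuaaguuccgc
miR-27b-3p: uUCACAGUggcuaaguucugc
miR-24-3p: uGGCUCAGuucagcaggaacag
A mature sequence was matched for 4 of the 5 members, and miR-23b is given by name. miR-27a and miR-27b have the same seed and are identical at 20 of 21 bases. The single difference is C19U, miR-27a's base first, with positions counted from the 5′ end of the mature strand. The seed of miR-24 also occurs in miR-5124b, miR-6369, miR-6410 and miR-6413, and none of these 4 had a mouse probe set in the table.

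Both clusters give the same mature miR-24. The hairpins of its genes are shown for this reason, with the mature strand in capitals.
Mir24-1 (chromosome 13): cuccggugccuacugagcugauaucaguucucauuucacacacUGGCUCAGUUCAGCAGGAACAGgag
Mir24-2 (chromosome 8): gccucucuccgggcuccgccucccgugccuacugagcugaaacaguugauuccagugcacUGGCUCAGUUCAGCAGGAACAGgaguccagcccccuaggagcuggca
The mature strand lies at bases 44 to 65 of the Mir24-1 hairpin and at bases 61 to 82 of the Mir24-2 hairpin. The miR-24 value is therefore the sum over both loci and does not say which of them contributed. Probe sequences are not among the data used here, so how far the probe sets of paralogs, miR-27a and miR-27b or miR-23a and miR-23b, bind each other's target was not tested.

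The values are taken as log2, a base inferred from their range, and fold changes rest on it. A probe set was counted as detected on an array when it exceeded 95% of the plant probe sets on it. That limit was 4.22 to 4.33. All 5 members were detected on all 6 arrays, and none depended on 1 group to be tested. WT replicates 1 and 4 stood apart, with highest values of 11.50 and 11.42, against 13.36 and 13.19 on the TG arrays and 13.23 and 13.13 on WT replicates 2 and 3. Mouse probe sets detected numbered 199 to 201 on the TG arrays and 149, 172, 146 and 132 on WT replicates 1 to 4. This count thus did not set WT replicate 1 apart from WT replicate 3. Because of the highest values, results are given also with WT replicates 2 and 3 as the only WT arrays. Of the lung markers listed, all 8 of the epithelial miRNAs were tested. The endothelial miR-126-3p was tested, but miR-126-5p was not detected on enough arrays. Among miRNAs of striated muscle, liver and brain, 1 of 6 was tested.

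No member passed the test in either direction. limma across the 197 mouse probe sets detected on at least 2 arrays, with a threshold of 0.05 on the Benjamini-Hochberg adjusted p, called 6 of them higher in TG, 3.05%, and none lower, 0%. Of the 5 members, 0 were higher and 0 lower, and 0 had an unadjusted p under 0.05, which 19.8% of tested probe sets had. Differences (TG minus WT) were positive for 3 members and negative for 2, and positive for 66.0% of all tested probe sets. The median of the members was 0.14 on the log2 scale, against 0.21 over all tested probe sets. These counts describe the members and are not a test of the set.

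**Figure D1:**
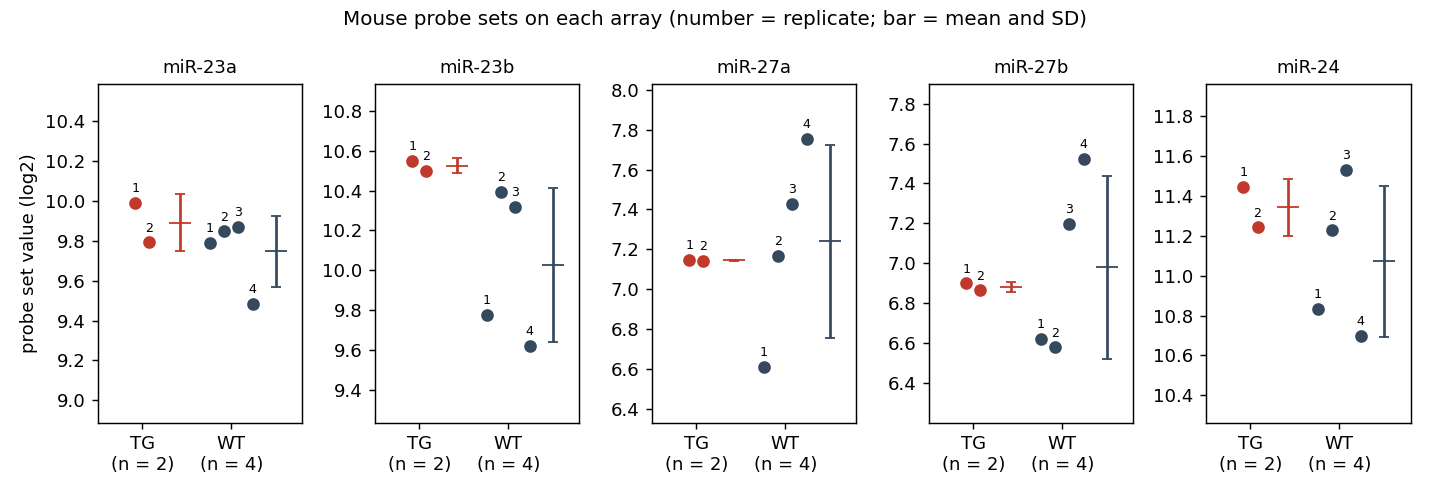
Log2 value of each mouse probe set on each array, TG left of WT, with the replicate number above each point and the group mean and SD as a bar (n = 2 and n = 4). In miR-23b the TG points lie above every WT point, and in the other panels the groups overlap; every panel spans the same log2 range.

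miR-23b, of the chromosome 13 cluster, had the largest measured difference of the 5. Its log2 values were 10.55 and 10.50 on the TG arrays, against 9.77, 10.39, 10.32 and 9.62 on WT replicates 1 to 4. Neither TG array was reached by a WT array, but WT replicates 2 and 3 came close to them, and WT replicates 1 and 4 were the low ones. Such a split, TG above WT with no overlap, was seen in 29.4% of tested probe sets, so this alone does not set miR-23b apart. The means were 10.52 ± 0.04 in TG and 10.03 ± 0.39 in WT (SD, n = 2 and n = 4). The difference was 0.50 ± 0.29 (SE), or 1.41-fold, with a 95% interval from -0.18 to 1.17. It did not pass (limma, adjusted p = 0.400). Exact permutation, two-sided, gave p = 0.133, where 15 splits of the arrays allow 0.0667 at the smallest. With WT replicates 2 and 3 alone the difference was 0.17 ± 0.27, and with the tested probe sets of each array centred on their median it was 0.06.

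miR-23a, known in human cancer cells to repress glutaminase, had the smallest spread of the 5. It measured 9.99 and 9.79 in TG, against 9.79, 9.85, 9.87 and 9.48 in WT. TG replicate 2 lay among the WT values, and WT replicate 4 was the low array. Means were 9.89 ± 0.14 in TG and 9.75 ± 0.18 in WT (SD, n = 2 and n = 4), and the difference was 0.14 ± 0.23 (SE), with a 95% interval from -0.39 to 0.68 (limma, adjusted p = 0.788). A change in either direction of over 1.60-fold lay outside that interval. Its SD within groups was 0.17, and only 11.2% of tested probe sets had a lower one, against a median of 0.35. The sign turned with centring on the tested median, where the difference was -0.29, and with WT replicates 2 and 3 alone it was 0.03. Leaving out TG replicate 1 gave 0.044, leaving out TG replicate 2 gave 0.24, and leaving out WT replicate 4 gave 0.057.

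Both miR-27 members had TG values inside the WT range and spread widely among WT mice. miR-27a measured 7.15 and 7.14 in TG, against 6.61, 7.17, 7.43 and 7.75 in WT. Both TG arrays thus fell within the WT range of 1.14 log2 units. The means were 7.14 ± 0.0032 in TG and 7.24 ± 0.48 in WT (SD, n = 2 and n = 4). They differed by -0.10 ± 0.33 (SE), with a 95% interval from -0.86 to 0.67 (limma, adjusted p = 0.900). miR-27b, which shares the seed printed above, measured 6.90 and 6.86 in TG, against 6.62, 6.58, 7.20 and 7.52 in WT. Here too the TG arrays lay inside the WT range, between the 2 low and the 2 high WT arrays. Means were 6.88 ± 0.02 in TG and 6.98 ± 0.46 in WT (SD, n = 2 and n = 4), a difference of -0.10 ± 0.32 (SE) with a 95% interval from -0.84 to 0.64 (limma, adjusted p = 0.900). Both signs turned when only WT replicate 4, the highest WT array for both, was left out. The differences were then 0.076 for miR-27a and 0.083 for miR-27b. With WT replicates 2 and 3 alone, which leaves out WT replicate 1 as well, they were negative again, at -0.15 and -0.01. With centring on the tested median they were -0.53 and -0.54.

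miR-24, which in human cells is known to restrain cell cycle genes, measured 11.44 and 11.24 in TG, against 10.83, 11.23, 11.53 and 10.70 in WT. WT replicate 3 was the highest of the 6 arrays, and WT replicates 1 and 4 were the lowest, as for miR-23b. The means were 11.34 ± 0.14 in TG and 11.07 ± 0.38 in WT (SD, n = 2 and n = 4). The difference was 0.27 ± 0.29 (SE), with a 95% interval from -0.40 to 0.95 (limma, adjusted p = 0.684). It was -0.035 with WT replicates 2 and 3 alone, -0.024 after quantile normalization and -0.17 with centring on the tested median, so its direction is not settled. With 1 array left out it ran from 0.15 (WT replicate 4 left out) to 0.42 (WT replicate 3 left out), and it was 0.17 with TG replicate 1 left out.

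Other mammals' probe sets of the same names were hybridised with the RNA of these 6 mice and so bring no further animals, but they show how far a value depends on the probe set. For miR-23b, 9 were detected and in 8 of them the TG arrays were above every WT array, with differences from -0.21 to 0.80 and a median of 0.63. Their medians were 10.66 and 10.49 in TG, against 9.81, 10.23, 10.11 and 9.66 in WT. The exception was the dog probe set, with a difference of -0.21, whose mean differed from that of the mouse probe set by -3.63. All 5 probe sets of fish, frog and chicken for miR-23b likewise had TG above every WT array, by 0.54 to 0.69 in the mean. That split was seen in 29.4% of tested mouse probe sets, and its share among probe sets of other species was not counted. Averaging the mouse and mammalian probe sets gave 0.56 for miR-23b, and did not pass (limma, adjusted p = 0.167).

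For miR-24, 11 of 12 mammalian probe sets were detected, and all 11 were positive, by 0.17 to 0.36. In none of them was every WT array exceeded by both TG arrays. The undetected one was that of the opossum. For miR-23a, 10 of 15 were positive and 5 negative, from -0.19 to 0.23. The lowest were those of dog (-0.19) and opossum (-0.16), whose means differed from that of the mouse probe set by -2.48 and -2.06. For miR-27a, 3 of 15 were positive and 12 negative, from -0.71 to 0.17. In 4 the TG arrays were below every WT array, unlike in the mouse miR-27a. That pattern was seen in 6.6% of tested mouse probe sets. Among these 4, the cow and dog probe sets had means that differed from the mouse mean by -1.16 each. For miR-27b, 1 of 6 was positive and 5 negative, from -0.22 to 0.17. The scatter between probe sets of 1 name was thus wider for miR-27a than for miR-24, and in each case it lay within the 95% interval of the mouse difference except for the dog probe set of miR-23b.

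**Figure D2:**
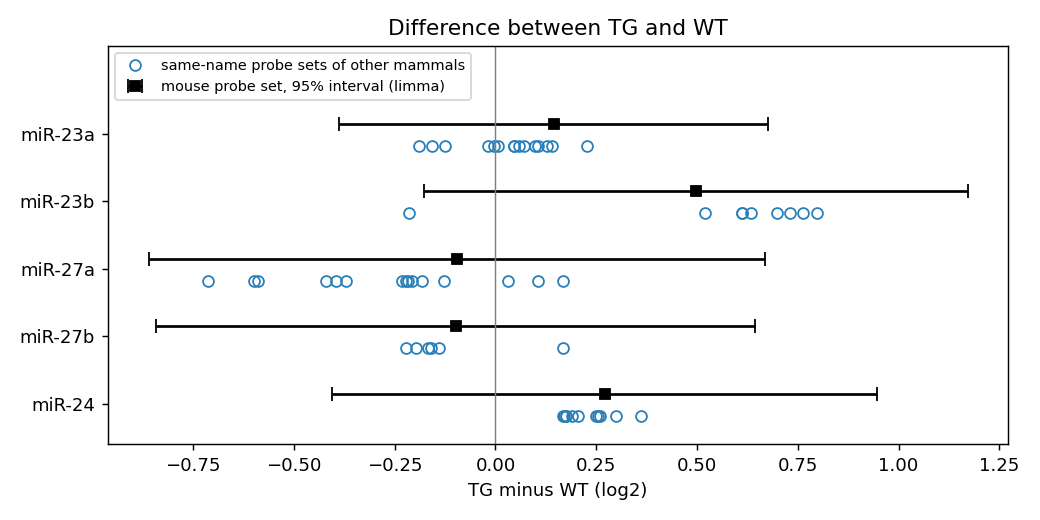
TG minus WT difference on the log2 scale for each mouse probe set (square, with limma's 95% interval) and for each detected same-name probe set of another mammal (open circle, no interval). All 5 intervals include 0, and 8 of the 9 circles of miR-23b lie above 0.

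The members followed more than 1 pattern over the arrays. Taken as deviations from its own mean, miR-23b was at 0.36 and 0.30 in TG, against -0.42, 0.20, 0.12 and -0.57 in WT. miR-24 was at 0.28 and 0.08 in TG, against -0.33, 0.06, 0.37 and -0.47 in WT, with the same low arrays. miR-27a stood at -0.06 and -0.07 in TG, against -0.60, -0.04, 0.22 and 0.54 in WT, so WT replicate 4 was its highest array where it was the lowest for miR-23a, miR-23b and miR-24. As a description over 6 arrays that share array-wide shifts, Pearson's r between paralogs was 0.87 for miR-27a and miR-27b. Between members encoded in the same cluster it ran both ways. It was 0.90 for miR-23b with miR-24 and 0.83 for miR-23a with miR-24. It was -0.39 for miR-23b with miR-27b and -0.51 for miR-23a with miR-27a. miR-24, made in both clusters, had r = -0.0021 with miR-27a and -0.19 with miR-27b. After centring on the tested median, r was 0.36 for miR-23a with miR-27a, 0.32 for miR-24 with miR-27a and 0.38 for miR-24 with miR-27b. It stayed negative for miR-23b with miR-27b, at -0.19. For miR-23b and miR-23a with miR-24 it stayed positive, at 0.79 and 0.67. miR-23a and miR-23b, the other pair of paralogs, had r = 0.81, which was 0.15 after centring.

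**Figure D3:**
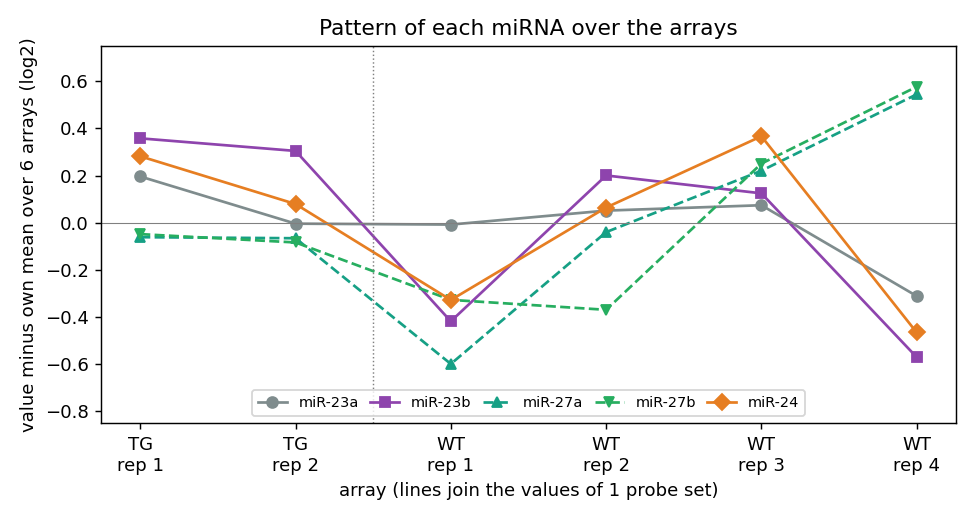
Log2 value of each member minus its own mean over the 6 arrays, TG arrays left of WT arrays, with lines joining the values of 1 probe set and no order among replicates. miR-27a and miR-27b reach 0.54 and 0.58 on WT replicate 4, where miR-23b is at -0.57 and miR-24 at -0.47.

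Among the 192 other tested mouse probe sets, those most like miR-23b over the 6 arrays were let-7c (r = 0.99) and let-7b (r = 0.98). let-7b, a member of the let-7 family that restrains growth genes, measured 13.22 and 13.16 in TG, against 11.37, 13.10, 13.07 and 11.27 in WT, so it was low on the same WT arrays as miR-23b. The nearest to miR-24 were let-7c (r = 0.95) and miR-145 (r = 0.95), a miRNA of smooth muscle. The nearest to miR-27a were miR-17 and miR-30b (r = 0.99 and 0.98), and to miR-27b miR-30e and miR-29a (r = 0.97 for both). miR-23a was most like miR-103 (r = 0.94) and miR-674 (r = 0.93). After centring on the tested median, r was -0.06 for miR-674 with miR-23a, 0.55 for let-7c with miR-24 and 0.84 for let-7b with miR-23b, and these 3 were no longer among the nearest 2. The other 7 were.

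The endothelial miR-126-3p is shown beside miR-27, since both are known from endothelial cells. It measured 9.30 and 9.34 in TG, against 10.14, 9.48, 10.69 and 11.19 in WT, and was highest on WT replicate 4, as were miR-27a and miR-27b. Of the smooth muscle miRNAs, miR-143 was also highest on WT replicate 4, at 9.62. miR-145 was not, at 9.05 on that array against 10.06 on WT replicate 3. miR-23a and miR-23b, likewise known from endothelial cells, were lowest on WT replicate 4, at -0.31 and -0.57 from their own means. The miR-126-3p difference of -1.05 ± 0.44 (SE) did not pass (limma, adjusted p = 0.232). In whole lung, fewer cells of a type and less RNA per cell cannot be told apart, and the part of endothelial cell content in the miR-27 values was not tested. Of the 6 leukocyte markers, 4 were tested and 0 passed by limma, with a median difference of 0.46. The lymphocyte miRNA miR-342-3p differed by 1.14 ± 0.29 (SE), with an adjusted p of 0.0812, miR-155 by 0.71 and miR-150 by 0.22. The myeloid miR-223, detected on 0 TG arrays and 2 WT arrays, differed by -0.27; miR-150 and miR-223 are named after their values were seen. Of the 7 miRNAs known to be induced in inflammation, 5 were tested and 1 passed, miR-146b, detected on 1 of 4 WT arrays and on both TG arrays (limma, adjusted p = 0.0428). The calls of this fit depended on single arrays, with 0 to 27 calls when 1 array was left out.

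Differences between paralogs within an array cancel what moves all probe sets of that array by the same amount. A shift that depends on how high a value is does not cancel. miR-23b minus miR-23a was 0.56 and 0.71 on the TG arrays, against -0.01, 0.55, 0.45 and 0.14 on the WT arrays. It was lowest on WT replicates 1 and 4, the arrays with highest values of only 11.50 and 11.42. The part of such a shift was not tested. The groups did not overlap, but TG replicate 1 exceeded WT replicate 2 by only 0.013. The mean was 0.63 ± 0.10 in TG and 0.28 ± 0.26 in WT (SD, n = 2 and n = 4), so the chromosome 13 member was measured 0.35 higher relative to its paralog in TG. Exact permutation, two-sided, gave p = 0.133, or 0.267 after Benjamini-Hochberg adjustment over the 2 pairs compared. The same difference was positive in 8 of 9 other mammals with both probe sets, from -0.03 to 0.81. In these 8 TG was above every WT array, and the dog pair was again the exception. These pairs were read on the same RNA, and no background share was taken for them. The opossum pair, at 0.77, holds a miR-23a probe set whose mean differed from the mouse one by -2.06. With WT replicates 2 and 3 alone the mouse value was 0.14.

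For the miR-27 pair the groups overlapped. miR-27b minus miR-27a was -0.25 and -0.28 on the TG arrays, against 0.01, -0.59, -0.23 and -0.23 on the WT arrays. The TG values lay within the WT range, with means of -0.26 ± 0.02 in TG and -0.26 ± 0.25 in WT (SD, n = 2 and n = 4). Exact permutation, two-sided, gave p = 1. With WT replicates 2 and 3 alone the difference was 0.15. In the 6 other mammals with both probe sets the TG minus WT difference of the pair was positive, from 0.02 to 0.57. In 3 of the 6 TG was above every WT array, again on the same RNA and without a background share. Whether the miR-23 and miR-27 pairs differ from each other was not tested.

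**Figure D4:**
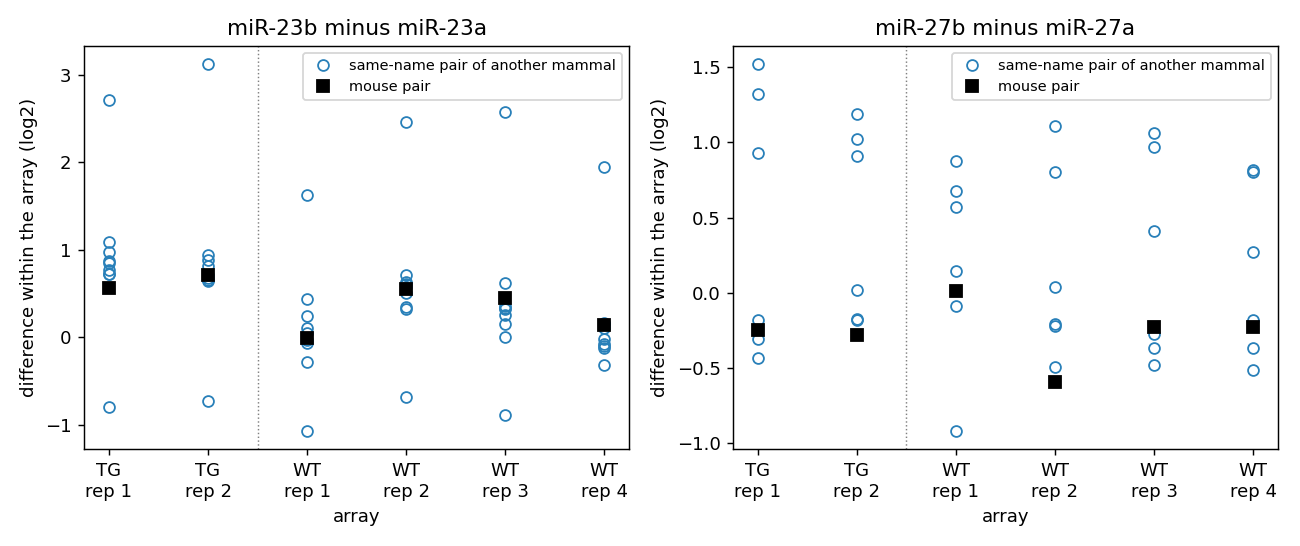
Difference between paralogs within each array on the log2 scale, miR-23b minus miR-23a on the left and miR-27b minus miR-27a on the right, for the mouse pair (square) and for same-name pairs of other mammals (open circles), TG arrays left of WT arrays. The mouse miR-23 squares are at 0.56 and 0.71 in TG and between -0.01 and 0.55 in WT, while the mouse miR-27 squares overlap between the groups.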

How the data were processed

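The authors deposited 1 value per probe set and array, taken here as log2 because values run from 3.37 to 13.36 with a dense floor, and the top values are too high for natural logs of scanner output. The base is inferred, and fold changes rest on it. Per the labels' protocols, TRIzol RNA was biotin-labelled by the Affymetrix method; background correction, summarization, normalization, scan dates and miRBase version: not given in the sources used here. The deposited table had 0 unused columns.

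Detection used the 95th percentile of 1631 plant probe sets, on 2 or more of 6 arrays, which left 197 of 609 mouse probe sets. TG (2 arrays) and WT (4 arrays) were compared with limma 3.58.1 in R 4.3.3 (lmFit, eBayes, no covariate, two-sided, Benjamini-Hochberg over the 197), tested on simulated data. Single values were tested by exact permutation. The number of arrays limits the precision. Sequences came from a RefSeq miRNA table (GRCm38.p6). Gene neighbours came from a RefSeq gene table, used without coordinates since that table names no build.

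Members, lists and tests were chosen with earlier results of these data known. Named were the members, for each the 2 probe sets most like it, up to 2 tested markers per list, and miRNAs sharing a member's seed. The marker lists were endothelial, leukocyte, epithelial, ciliated, smooth muscle, mesenchymal, erythroid, other tissues and inflammation-induced. Of their tested members, 0 of 1, 0 of 4, 0 of 8, 0 of 3, 0 of 2, 0 of 4, 0 of 2, 0 of 1 and 1 of 5 passed, in this order, by limma. Replicate numbers gave no evidence of pairing: deviations of same-numbered arrays correlated at r = -0.08. Alternatives changed the filter, normalization, floor, limma settings, probe sets tested together and arrays used.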

Additional observations from a re-analysis of the deposited data

How the results depend on the processing

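Under the 20 alternatives 0 of the 5 members passed the threshold, with adjusted p of 0.167 or above by limma. The direction of miR-23b was positive in all 20, from 0.06 to 0.62. Not all of these could turn it. Changes of only the filter, the floor, the eBayes trend or robust setting, or the probe sets tested together left it at 0.50. Centring on the tested median lowered the median of all tested differences by 0.44, to -0.23, gave a members' median of -0.29 and turned miR-23a to -0.29 and miR-24 to -0.17. Quantile normalization lowered the median of all tested differences by 0.13 and turned miR-24 to -0.024, and WT replicates 2 and 3 as the only WT arrays turned miR-24 to -0.035. Without WT replicate 4 the sign of miR-27a (0.0759) and miR-27b (0.0826) turned. Leaving out each array in turn gave -0.31 to 0.0759 for miR-27a and -0.23 to 0.0826 for miR-27b. The near-zero miR-27b minus miR-27a difference, at -0.0037, was positive at 0.00684 with quantile normalization, 0.14 with averaged mammalian probe sets and 0.15 with WT replicates 2 and 3 alone, and from -0.11 to 0.0865 with 1 array left out. The cause of these turns was not tested.

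The count of calls over all probe sets, 6, was 1 without a detection filter, 2 with the 99th plant percentile, 1 with detection on 4 or more arrays, 0 with quantile normalization, 2 with centring on the tested median, 33 with array weights, 1 with all animal probe sets in 1 test, 14 with averaged mammalian probe sets and 0 to 27 with 1 array left out (0 without either TG array, without WT replicate 1 and without WT replicate 3, and 27 without WT replicate 2). The replicate block, fitted to the first 2 replicates of each group, gave 12 calls, with miR-27a at 0.26, miR-27b at 0.28 and their difference at 0.0264; the labels do not say that numbers pair the mice. Which probe sets these counts hold was not compared. With 2 TG arrays, the intervals of the members leave room for changes of up to 2.25-fold.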
